A study of Mus musculus with 9 samples.

Results

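The cartilage collagens are the genes for the chains of collagens II, IX, XI and XXVII: Col2a1, Col9a1, Col9a2, Col9a3, Col11a1, Col11a2 and Col27a1. They were found by symbol in the probe annotation of an Affymetrix mouse array, and every probe set that carried only one of these symbols was kept, which gave 12 probe sets for 7 genes among 45037 probe sets for 18193 genes. RNA came from sclerotome, the somite tissue that gives vertebrae and intervertebral discs, dissected from E11.5 mouse embryos once the notochord had been taken away and grown as micromass, a drop of densely plated mesenchymal cells that can form cartilage. There were 3 arrays each from cultures given TGF-β1 (5 ng/ml), cultures given BMP4 (50 ng/ml) and untreated cultures, all stopped at 8 hours and all in medium with serum, ascorbic acid and β-glycerolphosphate, and each array carried a replicate number from 1 to 3. By the methods of the study the experiment was set up anew for each replicate. The sample records place treatment after a night in culture and the culture methods soon after attachment, and which of these holds for the arrays is not known. The study calls the embryos wild type and names no strain, and a micromass is a culture of dissociated cells, not an intact somite.

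Collagen II is the main fibril of cartilage, built of identical chains from Col2a1. Collagen XI (Col11a1, Col11a2, with a chain that comes from Col2a1 too) lies in the core of that fibril and limits its width, collagen IX (Col9a1, Col9a2, Col9a3) is bound to its surface, and collagen XXVII (Col27a1) forms thin fibrils of its own. In the embryo the transcription factor SOX9, with SOX5 and SOX6, switches these genes on as mesenchyme turns into cartilage, and BMP signals are known to promote that step.

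The deposited values are log2 signals in which each probe set had been set to 0 at its own median over the 9 arrays. A value of 1 is thus a signal of 2-fold that median, differences between arrays are kept, and how strongly a gene or a cell type marker was expressed cannot be read, so the label of the tissue could not be checked by marker levels and no level is compared between genes. Over all probe sets the SD of these values on an array was between 0.177 and 0.258. In RNA from whole cultures, more cells that express a gene and more RNA per cell cannot be told apart. Where a gene had several probe sets, the one with the largest variance over the 9 arrays is described first, and is called its main probe set. Col9a1, Col11a1 and Col27a1 had 2 probe sets each, Col9a3 had 3, and Col2a1, Col9a2 and Col11a2 had 1 each.

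Promoter sequence from RefSeq (build GRCm38.p6) was at hand for 5 of the 7 genes, in 6 windows, since Col9a1 has a start for a long transcript and one inside the gene for a short transcript. Those of Col9a1, Col9a2 and Col11a1 are shown because the genes code for partners in one fibril. Col9a1 and Col11a1 were also the closest pair of the 7 genes in their values on the 9 arrays. The bases printed lie before the annotated start of the gene or short transcript, on the + strand, so that windows which run past that start are shown in part, and capitals mark matches to a Smad box (CAGACA) or an Sp1 box (GGGCGG, which reads CCGCCC on the other strand).
Col9a1 long transcript, chr1:24177360-24177588, before the gene: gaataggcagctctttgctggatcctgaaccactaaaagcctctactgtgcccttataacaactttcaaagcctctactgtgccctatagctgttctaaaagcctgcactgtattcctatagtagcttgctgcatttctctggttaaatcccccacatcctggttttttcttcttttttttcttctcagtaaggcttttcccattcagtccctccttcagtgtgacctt
Col9a1 short transcript, chr1:24194953-24195202, inside the gene: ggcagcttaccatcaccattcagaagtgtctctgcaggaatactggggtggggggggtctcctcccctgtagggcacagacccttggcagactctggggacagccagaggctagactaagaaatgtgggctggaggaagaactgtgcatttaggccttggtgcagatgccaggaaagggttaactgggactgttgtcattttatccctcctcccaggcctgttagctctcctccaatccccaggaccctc
Col9a2, chr4:121039316-121039565, before the gene: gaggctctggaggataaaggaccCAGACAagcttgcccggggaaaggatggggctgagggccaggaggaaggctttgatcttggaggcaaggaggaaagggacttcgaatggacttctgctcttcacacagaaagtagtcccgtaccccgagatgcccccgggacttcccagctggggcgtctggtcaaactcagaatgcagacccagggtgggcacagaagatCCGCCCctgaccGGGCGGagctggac
Col11a1, chr3:114030290-114030478, before the gene: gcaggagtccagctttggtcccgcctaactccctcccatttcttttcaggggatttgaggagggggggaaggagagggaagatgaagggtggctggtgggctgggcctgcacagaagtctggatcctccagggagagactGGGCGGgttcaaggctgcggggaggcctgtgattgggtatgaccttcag
Over the 250 bases before each start, searched on both strands, the Sp1 box was in 4 of 6 windows (Col9a2, Col11a1, Col11a2 and Col27a1), against 32.7% of 32851 promoters searched in the same way. The Smad box was in 1 of 6 (Col9a2), against 17.1% of promoters, and the TATA box (TATAAA) in 1 of 6 (Col11a2), against 12.4%. The SOX cores ACAAAG and ACAATG were in 0 of 6, against 16.5% and 10.7%. Neither window of Col9a1 held any of these exact strings. Near forms were not counted, such as TCAAAG in the long window of Col9a1 and CAGAC in its short window. The Smad box can share its last letters, ACA, with the first letters of a SOX core. A match or its lack is a description of these windows only, and a further Sp1 match of Col11a1 lies past the bases printed.

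Among the fibril-forming collagens, Col2a1 (chromosome 15) had values of -0.39, 0.18 and -0.32 in TGF-β1 replicates 1, 2 and 3, of 0.00, 0.58 and 0.09 in BMP4 replicates, and of -0.21, 0.13 and -0.26 in untreated replicates. Replicate 2 was the highest array of every group, and the groups overlapped. Col11a1 (chromosome 3), at its main probe set, had -0.37, 0.04 and -0.58 with TGF-β1, 0.11, 0.85 and 0.00 with BMP4, and -0.21, 0.28 and -0.38 untreated. Untreated replicate 2 lay above BMP4 replicates 1 and 3 here too. The other Col11a1 probe set ran between -0.22 and 0.37 with TGF-β1, between 0.00 and 0.75 with BMP4, and between -0.11 and 0.52 untreated.

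Col11a2 (chromosome 17) varied most of the 7 genes. It had -1.29, 0.08 and -1.12 with TGF-β1, 0.00, 1.59 and 0.05 with BMP4, and -0.90, 0.39 and -0.90 untreated. Replicate 2 was again on top of each group, so that TGF-β1 replicate 2 lay above BMP4 replicates 1 and 3. Col27a1 (chromosome 4) had -0.05, 0.13 and -0.01 with TGF-β1, 0.07, 0.91 and 0.31 with BMP4, and -0.10, 0.00 and -0.27 untreated, all 3 BMP4 arrays being above all untreated arrays. Its other probe set had 0.00, 0.24 and 0.07 with TGF-β1, -0.01, 0.67 and 0.24 with BMP4, and -0.12, -0.08 and -0.23 untreated, and there both factors were above untreated on every array.

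Collagen IX holds 3 chains, each from its own gene. Col9a1 (chromosome 1) had -0.66, 0.02 and -0.69 with TGF-β1, 0.24, 0.80 and 0.00 with BMP4, and -0.51, 0.30 and -0.31 untreated, with TGF-β1 replicates 1 and 3 the lowest arrays. Its other probe set ran between -0.52 and 0.00 with TGF-β1, between 0.15 and 0.52 with BMP4, and between -0.19 and 0.19 untreated, so that the TGF-β1 and BMP4 arrays did not overlap. Col9a2 (chromosome 4) had -0.18, 0.49 and -0.38 with TGF-β1, 0.20, 1.02 and 0.05 with BMP4, and -0.60, 0.00 and -0.78 untreated. Every BMP4 array of Col9a2 lay above every untreated array.

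Col9a3 (chromosome 2) had -0.41, 0.00 and -0.87 with TGF-β1, 0.41, 1.21 and 0.36 with BMP4, and -0.51, 0.14 and -1.32 untreated, so the BMP4 arrays stood clear of both other groups. A further probe set of Col9a3 ran between -0.56 and 0.18 with TGF-β1, between 0.17 and 0.96 with BMP4, and between -0.87 and 0.00 untreated. The remaining one, of a type whose probes can also match other sequences, ran between -0.32 and 0.15 with TGF-β1, between 0.00 and 0.39 with BMP4, and between -0.34 and 0.08 untreated, and it was the only one of the 12 on which BMP4 replicate 2 was not the highest BMP4 array. Over the 12 probe sets BMP4 replicate 2 was the highest of all 9 arrays for 11, against 10.9% of all probe sets.

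**Figure D1:**
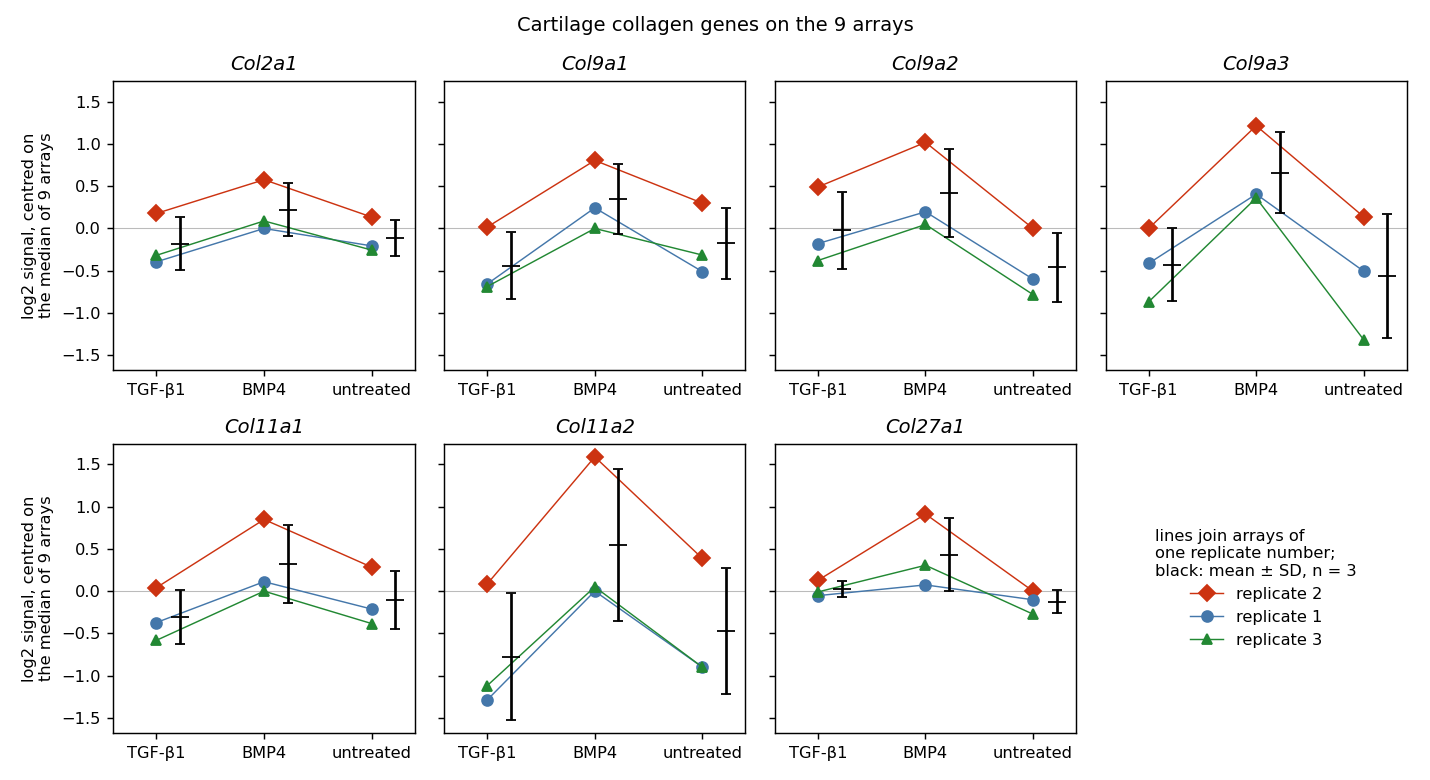
Each panel plots the log2 signal of one gene at its main probe set (y axis, centred on the median of the 9 arrays) for the TGF-β1, BMP4 and untreated cultures (x axis), with a marker and line per replicate number and black bars for group means ± SD (n = 3). The line of replicate 2 lies on top in all 7 panels and peaks at BMP4, at 1.59 for Col11a2 and 0.58 for Col2a1.

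BMP4 was set against no treatment to find the genes that answer a factor which promotes cartilage. All 12 probe sets had a higher mean with BMP4, with a median log2 difference of 0.48, against 0.00 over all probe sets, but none passed the test of the 3 group means. When the replicate number was also fitted as a block, 10 of 12 were called higher, all 7 main probe sets among them, against 4.01% of all probe sets. The same-numbered BMP4 and untreated arrays did not correlate in every number, so the block is an alternative here. The largest differences were those of Col9a3, a collagen IX chain (1.22 ± 0.36 SE, 2.33-fold, adjusted p = 0.0898), Col11a2, a collagen XI chain (1.02 ± 0.51, 2.02-fold, adjusted p = 0.361), and Col9a2 (0.88 ± 0.30, 1.84-fold, adjusted p = 0.144; limma, n = 3 per group). Col2a1 itself differed by 0.33 ± 0.19 (1.26-fold, adjusted p = 0.438), with a 95% interval from -0.09 to 0.75.

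By the test, 0 of 12 probe sets were called at an adjusted p under 0.05, where 5.44% of all probe sets were called (2.31% as higher). At an unadjusted p under 0.05 there were 5 of 12, all higher, against 8.04% called higher of all probe sets, and the methods' test of unequal variances with Benjamini-Hochberg adjustment also called 0. For 5 of 12 all BMP4 arrays lay above all untreated arrays, namely that of Col9a2, the main and second of Col9a3 and both of Col27a1, against 9.71% of all. Col27a1 differed by 0.56 ± 0.18 (1.47-fold, adjusted p = 0.125), Col9a1 by 0.52 ± 0.27 (1.44-fold, adjusted p = 0.370) and Col11a1 by 0.42 ± 0.25 (1.34-fold, adjusted p = 0.454). Among the other probe sets the second of Col9a3 differed by 1.01 ± 0.29 (adjusted p = 0.0787), and the second of Col11a1 by 0.16 ± 0.24 (adjusted p = 0.827).

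Within each replicate number, BMP4 was higher than untreated in all 3 numbers for 11 of 12 probe sets, against 19.5% of all, the exception being the third probe set of Col9a3 (0.41, -0.08 and 0.72 in numbers 1, 2 and 3). The 3 differences of Col9a2 were 0.80, 1.02 and 0.83, and those of Col11a2 were 0.90, 1.20 and 0.95, close together although the arrays themselves lay far apart. Those of Col27a1 were 0.18, 0.91 and 0.58 and those of Col9a1 0.75, 0.51 and 0.31. Without the 3 arrays numbered 2, 3 of 12 probe sets were called higher, against 1.16% of all: Col9a2 (0.81 ± 0.12, adjusted p = 0.0168), Col11a2 (0.92 ± 0.10, adjusted p = 0.00473) and the second probe set of Col9a3 (1.03 ± 0.09, adjusted p = 0.00244). That fit had 2 arrays per group. It was run with the arrays numbered 2 known to stand apart, and taking them out narrows the spread within groups. Without untreated replicate 2, 2 probe sets were called, both of Col9a3 (1.57 ± 0.33, adjusted p = 0.0339, and 1.29 ± 0.27, adjusted p = 0.0305), whereas without BMP4 replicate 2 none was, and the median difference was 0.31. The shares of all probe sets called in these single-array refits are not given, so the calls are not read as particular to Col9a3.

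Of the 10 sclerotome marker genes, 6 fell with BMP4 and 0 rose (4 to 6 falls without single arrays), where 3.45% of all genes rose and 4.51% fell, and the mean over that list was between -0.49 and -0.45 on BMP4 arrays and between 0.01 and 0.46 on untreated arrays. Among markers of other cells a dissection could carry along, 1 rose and 2 fell of 10 for neural tube and neurons, 1 rose and 1 fell of 8 for notochord, 1 rose of 10 for skeletal muscle, and 0 of 4 for neural crest and glia, 0 of 7 for endothelium and 0 of 9 for erythroid cells and macrophages passed the test. Several of these small counts hung on single arrays: the notochord rise was lost without BMP4 replicate 1 or 2 or any untreated array, and both neural falls without TGF-β1 replicate 1 or 3, BMP4 replicate 2 or any untreated array, with 1 left without BMP4 replicate 1. The notochord fall (Krt18), the muscle rise (Myf5) and the neural rise (Sox2) kept their calls whichever array was left out. Without TGF-β1 replicate 2 there were 2 neural rises, without untreated replicate 3 there was 1 muscle fall, and without untreated replicate 2 there were 4 erythroid and macrophage falls. The mean over the erythroid and macrophage list was 0.60, 0.03 and 0.62 on untreated replicates 1, 2 and 3, and between -0.19 and 0.04 on BMP4 arrays. The part of all these cells in the differences of the collagens was not tested.

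TGF-β1 was set against no treatment because the study links this factor to the disc. The 12 probe sets lay on both sides of 0, with 6 higher and 6 lower with TGF-β1 and a median log2 difference of 0.02, against 0.01 over all probe sets. Col9a2 was the highest, at 0.44 ± 0.30 (1.35-fold, adjusted p = 0.477), and Col11a2 the lowest, at -0.30 ± 0.51 (adjusted p = 0.802). Col2a1 differed by -0.07 ± 0.19 (adjusted p = 0.885), with a 95% interval from -0.49 to 0.35.

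Here 0 of 12 probe sets were called, where 4.43% of all were, and 0 had an unadjusted p under 0.05, where 18.7% of all did. The methods' test with adjustment called 0 as well. Col9a1 differed by -0.27 ± 0.27, Col11a1 by -0.20 ± 0.25, Col9a3 by 0.13 ± 0.36 and Col27a1 by 0.15 ± 0.18. The arrays did not overlap for the second probe set of Col27a1 only (0.24 ± 0.15, adjusted p = 0.421), against 9.87% of all probe sets higher in this way.

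Within replicate numbers the values were narrower. Col9a2 was higher with TGF-β1 by 0.42, 0.49 and 0.40 in numbers 1, 2 and 3, and Col11a2 was lower by differences of -0.39, -0.30 and -0.22. In all, 5 of 12 probe sets were higher in every number and 5 lower in every number, each against 21.7% of all. When the replicate number was fitted as a block, 1 of 12 was called, Col9a2 (0.44 ± 0.07, adjusted p = 0.00854), where 3.73% of all were called higher, and Col11a2 stayed uncalled (-0.30 ± 0.09, adjusted p = 0.0638). The direction for 3 genes turned when 1 array was left out. The difference of Col2a1 was 0.04 without TGF-β1 replicate 1, 0.00067 without TGF-β1 replicate 3 and 0.053 without untreated replicate 2. That of Col9a3 was -0.08 without TGF-β1 replicate 2 and -0.24 without untreated replicate 3, and that of Col11a2 was 0.13 without untreated replicate 2.

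Of the markers of other cells, 1 rose of 8 for notochord, 1 fell of 10 for skeletal muscle, 1 fell of 10 for neural tube and neurons and 1 fell of 9 for erythroid cells and macrophages with TGF-β1, and none of the neural crest, endothelium or sclerotome genes passed the test, where 2.54% of all genes rose and 4.21% fell. The notochord rise was lost without TGF-β1 replicate 1 or 2 or any untreated array, the muscle fall without any array but untreated replicate 3, without which there were 3, and the erythroid and macrophage fall without TGF-β1 replicate 1 or 3 or untreated replicate 1. There were 5 erythroid and macrophage falls without untreated replicate 2 and 2 neural falls without BMP4 replicate 2, while for sclerotome there was 1 rise without BMP4 replicate 1 or 2 and 1 fall without untreated replicate 3. The erythroid and macrophage list had means between -0.30 and 0.05 on TGF-β1 arrays, and of 0.60, 0.03 and 0.62 on untreated replicates 1, 2 and 3. With the block 6 of 10 muscle genes fell, 1 rose and 3 fell for neural tube and neurons, and 1 each fell for neural crest and sclerotome. By that fit 3.73% of all probe sets rose and 5.22% fell. The part of these cells in the values above was not tested.

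The cultures with TGF-β1 were also set against those with BMP4, which share their arrays with the comparisons above. All 12 probe sets had a lower mean with TGF-β1, with a median log2 difference of -0.51, against 0.01 over all probe sets. Col11a2 differed by -1.32 ± 0.51 (2.49-fold lower, adjusted p = 0.177), Col9a3 by -1.09 ± 0.36 (2.12-fold lower, adjusted p = 0.116) and Col9a1 by -0.79 ± 0.27 (1.73-fold lower, adjusted p = 0.122). Col2a1 differed by -0.40 ± 0.19 (1.32-fold lower, adjusted p = 0.276).

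Of the 12, 0 were called, where 6.91% of all probe sets were (3.49% as lower), and 7 had an unadjusted p under 0.05, all lower, where 10.6% of all were lower in this way. The methods' test with adjustment called 0. The arrays did not overlap for 2 of 12, the main probe set of Col9a3 and the second of Col9a1 (-0.58 ± 0.16, adjusted p = 0.0539), against 13.5% of all. This second probe set of Col9a1 was called without TGF-β1 replicate 2 (-0.72, adjusted p = 0.0281) and without untreated replicate 2 (-0.58, adjusted p = 0.0400), an array that enters only the variance. The shares of all probe sets called in these refits are not given. Col11a1 differed by -0.62 ± 0.25, Col9a2 by -0.44 ± 0.30 and Col27a1 by -0.41 ± 0.18.

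When replicate number entered the fit as a block, 8 of 12 were called lower with TGF-β1, where 6.11% of all were. They were all main probe sets but that of Col27a1 (-0.41 ± 0.13, adjusted p = 0.0884), and the second of Col9a1 and of Col9a3. The adjusted p was 5.56e-05 for Col11a2, 0.000807 for Col9a1, 0.00167 for Col11a1, 0.00171 for Col9a3, 0.00532 for Col9a2 and 0.00975 for Col2a1. For Col2a1 the differences in numbers 1, 2 and 3 were -0.39, -0.40 and -0.41, which is the closest agreement between numbers of any main probe set, and for Col11a2 they were -1.29, -1.50 and -1.17. Over the 12, 10 were lower in all 3 numbers, against 23.4% of all. Without the 3 arrays numbered 2, 4 of 12 were called lower, against 1.80% of all: both probe sets of Col9a1 (-0.79 ± 0.12 and -0.61 ± 0.10), the second of Col9a3 (-0.72 ± 0.09) and Col11a2 (-1.23 ± 0.10, adjusted p = 0.00102). That fit too had 2 arrays per group and was run with the arrays numbered 2 known to stand apart.

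Between these cultures 4 sclerotome genes of 10 were higher and 1 lower with TGF-β1 (7 and 1 with the block). For the other cells 1 of 8 notochord genes was higher (1 higher and 1 lower with the block), 1 of 10 muscle genes lower (3 with the block), 1 of 10 neural genes higher and 1 lower (1 and 3 with the block), 1 of 4 neural crest and glia genes lower, 1 of 9 erythroid and macrophage genes lower, and 0 of 7 endothelial genes passed the test, where 4.73% of all genes were higher and 5.38% lower. With the block 5.55% of all probe sets were higher and 6.11% lower. The lower sclerotome gene lost its call without TGF-β1 replicate 1 or 3, any BMP4 array or untreated replicate 1, the neural crest gene without any array but TGF-β1 replicate 1 and untreated replicate 2, and the erythroid and macrophage gene without any TGF-β1 array or BMP4 replicate 1 or 3. Both neural calls were lost without TGF-β1 replicate 3 and the lower one also without TGF-β1 replicate 2 or BMP4 replicate 1, and 2 were lower without BMP4 replicate 2. Their part in the differences of the collagens was again not tested.

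**Figure D2:**
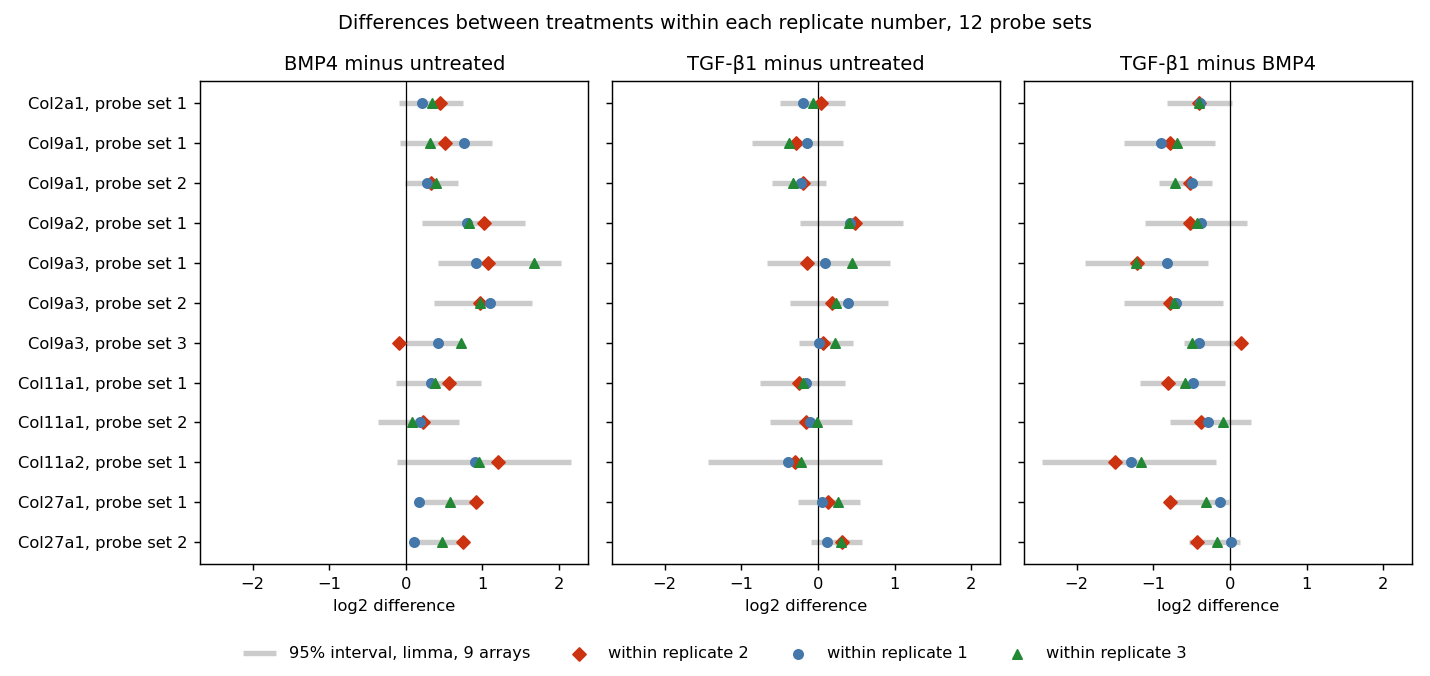
Points are the log2 difference (x axis) between treatments within each replicate number for the 12 probe sets (y axis, the main probe set of a gene being number 1), and grey bars are 95% intervals of the limma fit of 9 arrays. With BMP4 against untreated the points lie right of 0 except for one of Col9a3, and with TGF-β1 against BMP4 those of Col2a1 fall on nearly one value, -0.39 to -0.41.

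The arrays numbered 2 gave higher signals than those numbered 1 and 3 in every group for all 7 genes at their main probe sets. Col11a2 was 2.60-fold higher on them (log2 difference 1.38 ± 0.07, adjusted p = 7.31e-05, limma with group in the model, 3 against 6 arrays), by 1.29 with TGF-β1, 1.56 with BMP4 and 1.29 untreated. Col9a3 was 1.79-fold higher (0.84 ± 0.12), Col9a2 1.72-fold (0.79 ± 0.06), Col9a1 1.62-fold (0.69 ± 0.08), Col11a1 1.55-fold (0.63 ± 0.07) and Col2a1 1.39-fold (0.48 ± 0.06, adjusted p = 0.00551). Col27a1, at 0.36 ± 0.12, did not pass the test (adjusted p = 0.141), and its excess was 0.72 in the BMP4 group against 0.16 with TGF-β1 and 0.19 untreated. This contrast was chosen with earlier results known, and it describes the 3 arrays that carry the number 2. No label says that they came from one set-up of the experiment. If they did, they were not independent of each other, and the p values describe that set-up only.

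In all, 9 of 12 probe sets, among them 6 of the 7 main ones, were called higher on arrays numbered 2, where 4.13% of all probe sets were called (2.37% as higher). The others were both of Col27a1 and the third of Col9a3 (0.18 ± 0.12, adjusted p = 0.481). Without TGF-β1, BMP4 or untreated replicate 2 the count was 7 each. The shares of 4.13% and 2.37% belong to the fit of all 9 arrays, and those of these refits are not given. The calls lost were those of Col2a1 (0.45, adjusted p = 0.0504) and the second probe set of Col9a1 (0.35, adjusted p = 0.102) without TGF-β1 replicate 2, and of the main probe set of Col9a3 and the second of Col9a1 without BMP4 replicate 2 (0.84 and 0.39, adjusted p = 0.0513 and 0.0655) and without untreated replicate 2 (0.74 and 0.39, adjusted p = 0.0629 and 0.0772).

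**Figure D3:**
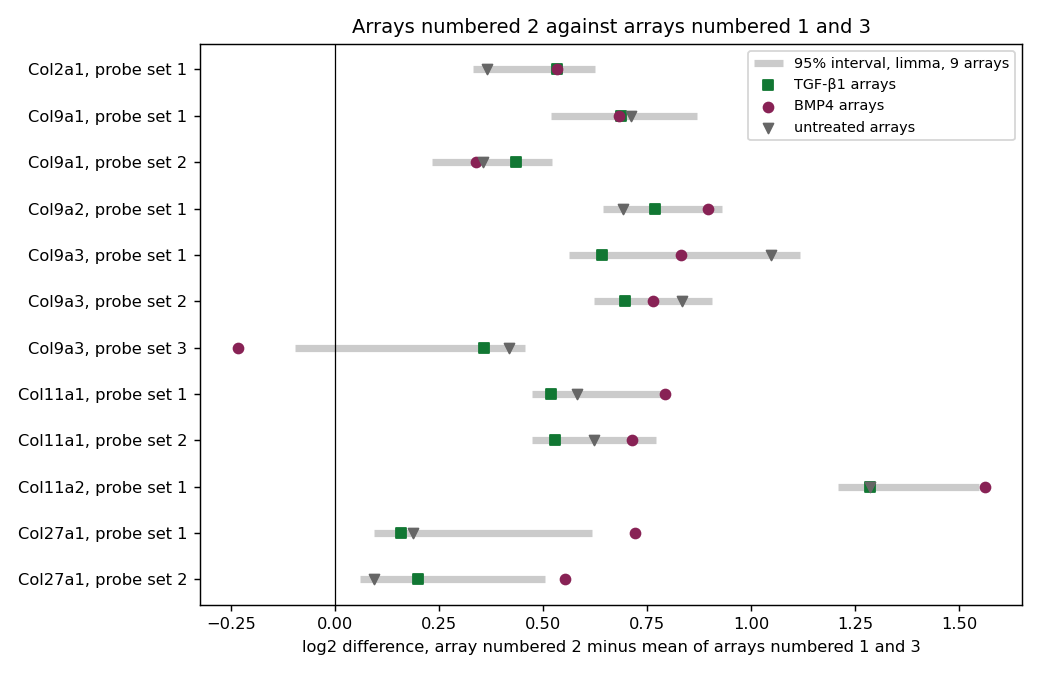
Points are the log2 difference (x axis) of the array numbered 2 from the mean of the arrays numbered 1 and 3 in the TGF-β1, BMP4 and untreated groups, for 12 probe sets (y axis), with the 95% interval of the limma fit in grey. For Col11a2 the groups lie at 1.29, 1.56 and 1.29, and for both probe sets of Col27a1 the BMP4 point stands apart to the right.

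Untreated replicate 2 lay above BMP4 replicates 1 and 3 for 5 of 12 probe sets, against 32.4% of all probe sets. The number 2 difference was larger than the BMP4 difference for 6 of 12, a count for which no share over all probe sets is given. As a share of the sum of squares over the 9 arrays, the replicate number held a median of 45.0% over the 12 probe sets and the treatment 48.2%, against 23.4% and 36.0% over all probe sets. For Col2a1 the number held 61.0% and the treatment 36.5%, for Col11a2 56.7% and 42.7%, and for Col9a3 36.9% and 58.7%. What neither held was 0.616% for Col11a2 and 2.44% for Col2a1 but 18.9% for Col27a1 and 39.1% for the third probe set of Col9a3.

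**Figure D4:**
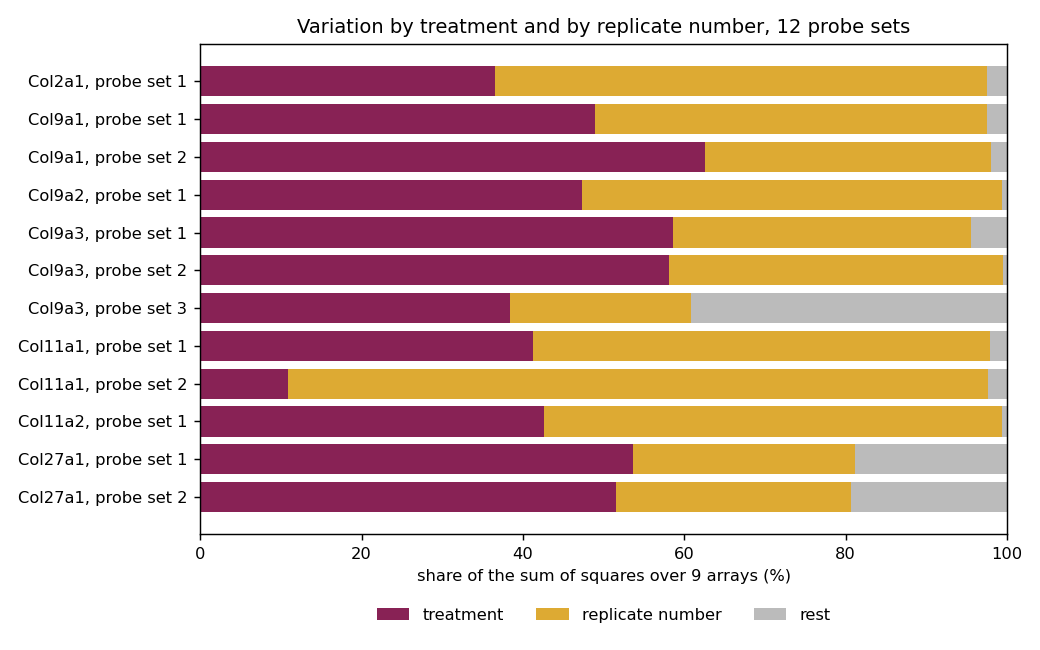
Bars divide the sum of squares over the 9 arrays (x axis, percent) into treatment, replicate number and the rest for the 12 probe sets (y axis). The number holds more than the treatment for Col2a1, Col9a2, Col11a2 and both probe sets of Col11a1, and the rest is large only for Col27a1 and the third probe set of Col9a3.

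Markers of other cells moved with the same arrays. Of the 10 neural tube and neuron genes, 4 were lower and 0 higher on arrays numbered 2, where 2.71% of all genes were lower and 3.62% higher, and the mean over the list was between -0.57 and -0.17 on those arrays and between -0.10 and 0.20 on the other 6. Tubb3, a neuronal tubulin, was 2.07-fold lower (-1.05 ± 0.07). Of the neural crest and glia genes, 2 of 4 were lower, with list means between -0.39 and -0.07 against between 0.00 and 0.22. Of the 10 sclerotome genes 3 were higher, Pax1, Foxc1 and Pax9, and of the 8 notochord genes 1 was, Foxa1 (0.74 ± 0.08), T and Noto not being analysed here. The calls of Pax1 and Foxc1 were lost without TGF-β1 replicate 2 (adjusted p of 0.0541 and 0.0949), and that of Foxc1 also without untreated replicate 2 (0.0919). For skeletal muscle 1 of 10 was higher and 2 lower, for endothelium 1 of 7 lower, and for erythroid cells and macrophages 2 of 9 higher. Without TGF-β1 replicate 2 the lower neural genes were 2 and the muscle, endothelial, erythroid and macrophage calls were all lost. Muscle had 1 higher and 0 lower without BMP4 replicate 2 and 0 higher and 1 lower without untreated replicate 2, and 1 neural gene was higher without TGF-β1 replicate 1. The endothelial call was lost without any array but untreated replicates 1 and 2, the erythroid and macrophage calls were 0 without any array numbered 2 and 1 without any other but untreated replicate 1, and the neural crest calls were 1 without any TGF-β1 array, BMP4 replicate 1 or untreated replicate 2 or 3. Notochord genes higher were 2 without untreated replicate 2 or 3. Their part in the excess of collagen RNA was not tested.

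Of the regulators of these genes, Wwp2, Sox9, Sox5 and Sox6 rose with BMP4. Of 12 measured, 4 rose and 1 fell, where 3.45% of 18193 genes rose and 4.51% fell. Wwp2, a ubiquitin ligase that binds SOX9, had 2.26, 3.13 and 2.14 with BMP4, against 0.00, -0.03 and 0.03 untreated, a rise of 5.71-fold (2.51 ± 0.21, adjusted p = 0.000162). Sox9 had 1.18, 2.13 and 1.26 with BMP4, against -0.33, 0.00 and -0.35 untreated, a rise of 3.36-fold (1.75 ± 0.23, adjusted p = 0.00206). Both were far above every untreated array. Sox5 rose 2.35-fold (1.23 ± 0.17) and Sox6 2.17-fold (1.12 ± 0.25), and Maf, which acts with SOX9 on cartilage genes, fell 1.97-fold (-0.98 ± 0.21). The call of Maf was lost without any one of the BMP4 arrays (adjusted p from 0.061 to 0.078). The call of Sox6 was lost without TGF-β1 replicate 1, untreated replicate 1 or untreated replicate 3 (adjusted p from 0.0508 to 0.0933). The median difference over the 12 regulators was 0.22.

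With TGF-β1 against untreated, 1 regulator rose and 2 fell, where 2.54% of genes rose and 4.21% fell. Maf fell 4.72-fold (-2.24 ± 0.21, adjusted p = 0.00048), with -1.21, -1.21 and -1.34 against 0.75, 1.60 and 0.60 untreated. Arid5b, a coactivator of SOX9, fell 1.86-fold (-0.90 ± 0.15), and Sox8, a relative of Sox9, rose 1.56-fold (0.64 ± 0.14), a call lost without TGF-β1 replicate 2 or 3, BMP4 replicate 1 or untreated replicate 1 or 3 (adjusted p from 0.052 to 0.11). Sox9 (0.02 ± 0.23), Sox5 (-0.10 ± 0.17) and Sox6 (-0.38 ± 0.25) did not pass the test. With TGF-β1 against BMP4, 0 were higher (1 without untreated replicate 1) and 5 lower, where 4.73% of genes were higher and 5.38% lower: Wwp2 (-2.88 ± 0.21), Sox9 (-1.73 ± 0.23), Sox6 (-1.50 ± 0.25), Sox5 (-1.34 ± 0.17) and Maf (-1.26 ± 0.21). On arrays numbered 2, 2 of 12 were higher, Sox6 (0.55 ± 0.13) and Sox9 (0.52 ± 0.12), where 3.62% of genes were higher, and each call was lost when any of 8 arrays was left out, the exception being untreated replicate 1 for Sox6 and TGF-β1 replicate 1 for Sox9 (adjusted p from 0.057 to 0.15).

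Proteins that bind or join cartilage fibrils gave 1 rise and 1 fall of 15 with BMP4. Of all genes 3.45% rose and 4.51% fell with BMP4, and 2.54% and 4.21% with TGF-β1 against untreated. With TGF-β1 against BMP4 4.73% of all genes were higher and 5.38% lower, and on the arrays numbered 2 these shares were 3.62% and 2.71%. Acan, the aggrecan core protein, rose 3.71-fold (1.89 ± 0.23, adjusted p = 0.00131), and Matn2, a matrilin, fell 1.92-fold (-0.94 ± 0.21), a call lost without BMP4 replicate 1 or 3 or untreated replicate 1 or 2 (adjusted p from 0.079 to 0.10). With TGF-β1 against untreated 3 rose and 1 fell, led by Chad, chondroadherin, which binds collagen II (2.64 ± 0.39, 6.24-fold), Fmod, fibromodulin, which binds collagen fibrils (2.53 ± 0.20, 5.77-fold), and Matn2 (-1.47 ± 0.21), and with the block 5 rose and 5 fell. By that block fit 3.73% of all probe sets rose and 5.22% fell. With TGF-β1 against BMP4 2 were higher and 2 lower, and with the block 3 and 7, where 5.55% and 6.11% of all probe sets were. Fmod was higher (2.26 ± 0.20), and Acan (-1.52 ± 0.23) and Epyc, epiphycan (-1.34 ± 0.26), were lower, the last a call lost without TGF-β1 replicate 3 (adjusted p = 0.061). Without TGF-β1 replicate 2 or 3, BMP4 replicate 1 or untreated replicate 3, 1 was higher here, and with BMP4 against untreated 2 rose without TGF-β1 replicate 2. On arrays numbered 2, 9 of 15 were higher and 0 lower, and 5 were higher without untreated replicate 2. Cnmd, the cartilage glycoprotein chondromodulin, had 0.68 with TGF-β1, 1.88 with BMP4 and 1.70 untreated on the arrays numbered 2, against -1.51 to 0.15 on the other 6, a difference of 3.93-fold (1.97 ± 0.08, adjusted p = 1.2e-05). Hapln1, the link protein that ties aggrecan to hyaluronan (1.82 ± 0.14), and Matn4, a matrilin (1.32 ± 0.07), followed.

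Of 27 measured genes for making and finishing collagen, 7 rose and 2 fell with BMP4, and without BMP4 replicate 2 only 3 rose. The shares over all genes were 3.45% higher and 4.51% lower with BMP4, and 2.54% and 4.21% with TGF-β1 against untreated. They were 4.73% and 5.38% with TGF-β1 against BMP4, and 3.62% and 2.71% on the arrays numbered 2. Plod2, a lysyl hydroxylase, rose 2.16-fold (1.11 ± 0.17), Pcolce2, which enhances the cleavage of procollagen, rose 2.02-fold (1.01 ± 0.12), and P4ha2, a prolyl hydroxylase chain, rose 1.58-fold (0.66 ± 0.13), a call lost without BMP4 replicate 2 or untreated replicate 1 or 3 (adjusted p from 0.055 to 0.057). With TGF-β1 against untreated, 10 rose and 0 fell, with 5 rises without TGF-β1 replicate 2 or untreated replicate 2 and 6 without any of the other TGF-β1 or untreated arrays. Lox, the enzyme that cross-links collagen, rose 3.14-fold (1.65 ± 0.27, adjusted p = 0.0090) and Creb3l2, which drives genes of the secretory path in chondrocytes, 1.76-fold (0.81 ± 0.08), while Plod2 rose 1.81-fold (0.85 ± 0.17), a call lost without TGF-β1 replicate 2 or 3 or untreated replicate 1 or 2 (adjusted p from 0.064 to 0.078). With TGF-β1 against BMP4, 5 were higher, among them Lox (1.60 ± 0.27) and Sec24d, a coat protein of secretory vesicles (0.68 ± 0.08), and 1 lower, Pcolce2 (-1.21 ± 0.12). On arrays numbered 2, 4 were higher and 1 lower, Pcolce (-0.75 ± 0.10), with 1 higher without TGF-β1 replicate 1 or 2 or BMP4 replicate 2 and 2 higher without TGF-β1 replicate 3, BMP4 replicate 3 or untreated replicate 2. P4ha1 (0.76 ± 0.15) and Lox (0.63 ± 0.13) were among those higher, both calls being lost without TGF-β1 replicate 1, 2 or 3, BMP4 replicate 2 or untreated replicate 2, and that of Lox also without BMP4 replicate 3 (adjusted p from 0.059 to 0.17).

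Of 20 collagens outside these types, 0 rose and 8 fell with BMP4, with a median difference of -0.36, against 0.56 for the 7 cartilage collagens at their main probe sets, none of which was called without the block. The count was 5 without BMP4 replicate 2 or untreated replicate 1 or 3. Over all genes 3.45% rose and 4.51% fell with BMP4, and 2.54% and 4.21% with TGF-β1 against untreated. The shares higher and lower were 4.73% and 5.38% with TGF-β1 against BMP4, and 3.62% and 2.71% on the arrays numbered 2. Col6a3, a chain of the microfibrils of collagen VI, had -1.35, -2.0 and -1.27 with BMP4, against 0.08, 0.00 and 0.09 untreated (3.03-fold lower, -1.60 ± 0.17, adjusted p = 0.000607). Col18a1, of basement membranes, fell 1.77-fold (-0.82 ± 0.14) and Col1a2, of the collagen I fibril, 1.69-fold (-0.76 ± 0.12). With TGF-β1 against untreated, 2 rose and 2 fell, with 1 fall without any TGF-β1 array or untreated replicate 1 or 2. Col6a2 fell (-0.46 ± 0.08), and Col8a2, of the network-forming collagen VIII (1.00 ± 0.23), and Col5a1, of collagen V (0.35 ± 0.08), rose. Both rises lost their call without TGF-β1 replicate 1, 2 or 3, BMP4 replicate 3 or untreated replicate 1 or 3, that of Col8a2 also without BMP4 replicate 1 and that of Col5a1 without untreated replicate 2 (adjusted p from 0.056 to 0.13). With TGF-β1 against BMP4, 8 were higher and 0 lower, with Col6a3 (1.66 ± 0.17), Col8a2 (1.39 ± 0.23) and Col8a1 (1.07 ± 0.15) first. With the block 12 were higher, where 5.55% of all probe sets were. These 12 are genes at their main probe sets, and a share over genes is not given for the block. On arrays numbered 2, 2 were higher and 3 lower, among them Col15a1 (0.74 ± 0.08), Col4a1 (-0.60 ± 0.08) and Col8a2 (0.59 ± 0.07), and 1 was lower without BMP4 replicate 2 or untreated replicate 2.

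**Figure D5:**
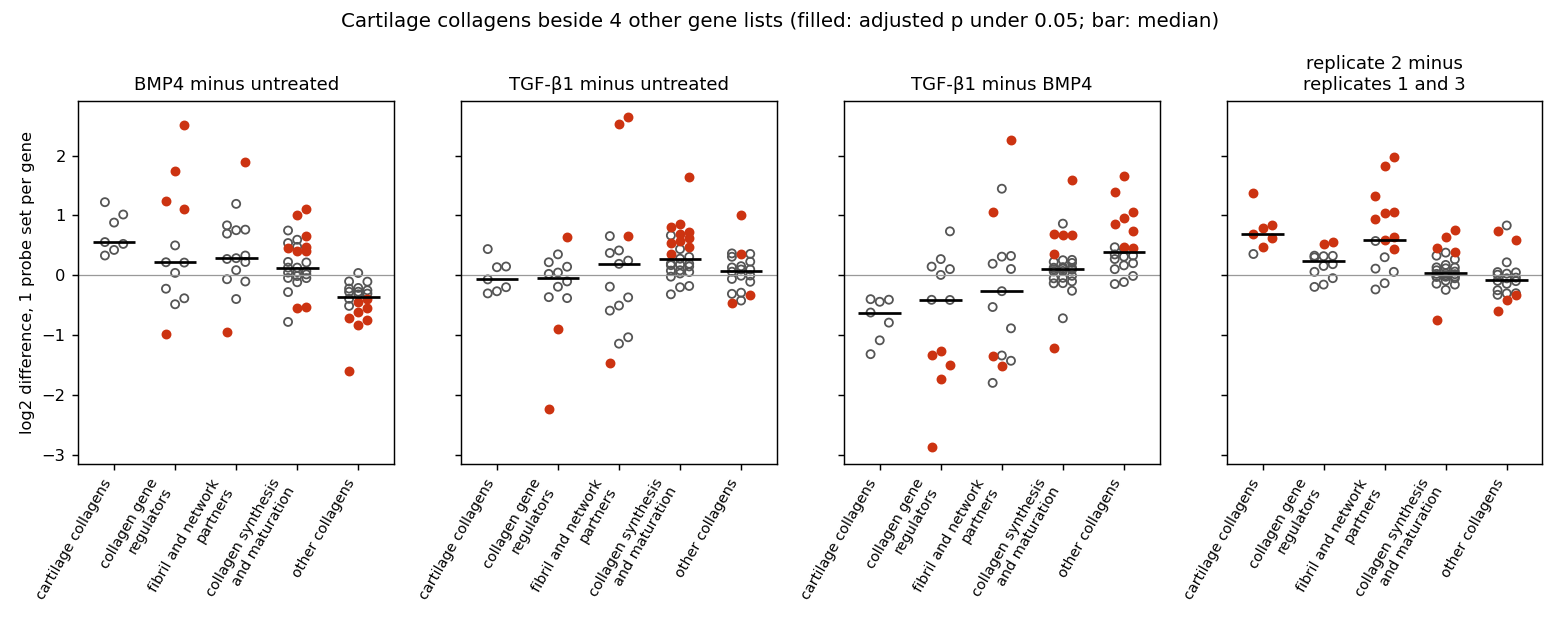
Each point is the log2 difference (y axis) of one gene in the lists on the x axis, for BMP4 minus untreated, TGF-β1 minus untreated, TGF-β1 minus BMP4, and arrays numbered 2 minus the others. Filled points passed the test and bars are medians. The cartilage collagens have only open points in the treatment panels but 6 of 7 filled in the last, and with BMP4 the other collagens lie mostly below 0. The last panel is from a fit of group and replicate number, the treatment panels from a fit of group alone. With the number as a block, 7 of the 7 main probe sets were called higher with BMP4 against untreated (4.01% of all probe sets). By that block fit 1 was higher with TGF-β1 against untreated (3.73%) and 6 were lower with TGF-β1 against BMP4 (6.11%).

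The genes whose 9 values were closest to those of Col2a1, by the root mean square difference at main probe sets, were Sik1 (0.09), Pank3 (0.10), Chadl (0.10), Ccdc122 (0.10) and Alx1 (0.11). Those closest to the average of the 7 collagens were Zic5 (0.13), Foxa1 (0.14), Ndrg2 (0.15), Dlx5 (0.16) and Spaca1 (0.16). Among the collagens, Col11a1 and Col9a1 were closest (0.14), then Col11a1 and Col2a1 (0.16) and Col27a1 and Col2a1 (0.17), and Col11a2 and Col27a1 were farthest apart (0.62). This measure takes in the size of the differences as well as their order, and genes that varied little lie close to one another by it.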

How the data were processed

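Values were the log2 signals deposited by the authors for 9 Affymetrix whole-genome mouse arrays (50 ng total RNA, amplified over cDNA cycles), normalized by RMA in GeneSpring, version not given in the sources used here. All 45101 probe sets had a median of 0 across arrays (tolerance 1e-6). Signal over background therefore could not be judged, so no probe set was removed as dim, and the number of arrays limits precision. The 64 control probe sets were left out. Of 45037 tested, 34945 carried 1 gene symbol, 932 several and 9160 none.

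Groups were compared with limma 3.58.1 (R 4.3.3) on all 9 arrays, 1 mean per group, with p values two-sided and adjusted by Benjamini-Hochberg over 45037 probe sets. Called means an adjusted p under 0.05, and SE is from the fit (6 residual degrees of freedom, median residual SD 0.129). An exact permutation test of 3 arrays against 3 cannot go below 0.1 and was not used. Arrays numbered 2 were set against the others with group in the model. Same-numbered deviations from group means correlated by at least 0.137 for TGF-β1 and untreated and 0.290 for TGF-β1 and BMP4, so the number was used as a block there. The lowest was -0.05 for BMP4 and untreated, where the block is given as an alternative only. The calculations were tested on simulated data.

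The members and lists were chosen with earlier results of these data known. Named genes are all 7 collagens and, per list and comparison, up to 3 called genes with the largest difference, with Sox9, Sox5 and Sox6. Each gene is given by its probe set of largest variance. Block counts of the lists are by gene but stand beside shares over all probe sets, which can be lower than shares over genes. Without the block, 4.73% of genes but 3.41% of probe sets were called higher with TGF-β1 against BMP4. Alternatives were the block, other scalings, array weights, the 2 compared groups alone, the methods' test of unequal variances, and leaving out arrays. Figures were drawn with matplotlib 3.10.9.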

Additional observations from a re-analysis of the deposited data

How the results depend on the processing

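Signs of the 7 differences at main probe sets held under every alternative run for BMP4 against untreated and for TGF-β1 against BMP4, and turned for TGF-β1 against untreated only when single arrays were left out (from -0.25 to 0.053 for Col2a1, from -0.24 to 0.48 for Col9a3, from -0.73 to 0.13 for Col11a2). For BMP4 against untreated 0 of 12 probe sets were called in the fit reported. Array quality weights gave 1, leaving out the 3 arrays numbered 2 gave 3, and leaving out single arrays gave 0 to 2. When the replicate number was a block, 10 of 12 were called higher, all 7 main probe sets among them, where 4.01% of all probe sets were. By the arrays of these groups alone the numbers were not shown to pair them, since the correlations were -0.05, 0.50 and 0.24 and the arrays numbered 1 and 3 did not all correlate best with their own number. The same numbers were used as a block for the other comparisons, and by the methods each replicate was a new set-up of the experiment. The block without the arrays numbered 2, an alternative chosen after seeing the data, gave 4. Shares over all probe sets are given, here or above, only for the fit reported, the block, and the fit without the arrays numbered 2. Counts from the other alternatives have no such share beside them and are not read as particular to these collagens. Averaged over its 3 probe sets, Col9a3 differed by 0.86 (adjusted p = 0.0453). For TGF-β1 against untreated the block gave 1 and leaving out single arrays 0. For TGF-β1 against BMP4, 0 were called as reported, 1 each with quantile normalization, array quality weights, the methods' threshold of an unadjusted p under 0.05 with 2-fold, and only probe sets with 1 symbol, 4 without the arrays numbered 2, 8 with the block, 6 with the block without those arrays, and 0 to 1 without single arrays. For arrays numbered 2 against the others the 9 calls became 1 with no group term, and 7 to 9 without single arrays. The cause was not tested, except that fits with fewer arrays have fewer degrees of freedom. With the block, the fibril partners gave 5 rises and 1 fall with BMP4, and it changed no call of these collagens other than those given. By that fit with BMP4 4.01% of all probe sets rose and 5.02% fell. Lack of signal over background and of more than 3 arrays per group limit what could be detected.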
